A study of Homo sapiens with 12 samples.

Results

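The mitochondrial ribosomal protein genes are taken here as every gene whose symbol is MRPL or MRPS followed by a digit, found on an Agilent whole-genome array by matching the RefSeq accession of each probe to a human gene table. This rule selected 77 of the 16557 genes that could be named, with 104 of the 41000 gene probes on the array. They stand for 50 large-subunit genes, 26 small-subunit genes and 1 pseudogene, MRPL42P5. MRPL42 itself had no matching probe, and MRPS36, now named KGD4 because its protein belongs to the 2-oxoglutarate dehydrogenase complex, falls outside the rule. Subunits were assigned by the place of the protein in the ribosome, so that MRPS30 and MRPS18A count with the large subunit.

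Mitochondria carry their own ribosome, which makes the inner-membrane proteins that mitochondrial DNA encodes, all of them parts of the respiratory chain and of ATP synthase. Its RNA comes from mitochondrial DNA, whereas all its proteins are encoded in the nucleus, made in the cytosol and imported. Some of these proteins descend from bacterial ribosomal proteins and others have no counterpart in the bacterial ribosome. Doxycycline, the inducer used here, belongs to the tetracyclines, which bind bacterial ribosomes and also inhibit translation in mitochondria.

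The arrays were hybridised with cyanine3-labelled RNA from H358, a human lung carcinoma cell line, in the form of an inducible clone named H358/Tet-On/SRSF2. In this single clone a Tet-responsive promoter drives the splicing factor SRSF2. There were 12 one-colour arrays, 6 labelled as control, for which the treatment is given as none, and 6 labelled as SRSF2 over-expression, in which 1 µg/mL doxycycline had been added for 24 hours. Since doxycycline is given only for the induced arrays, an effect of SRSF2 and an effect of doxycycline cannot be told apart.

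The arrays lay on 3 slides that were scanned separately, each with 2 arrays of both conditions, and between 54.2% and 68.0% of the gene spots of an array were well above background. The probe for SRSF2 itself went against the label: it read 3.74 to 4.03 in the control condition and 2.29 to 2.56 where SRSF2 over-expression is the label. This was a log2 fold change of -1.46 ± 0.063 (SE; adjusted p = 1.68e-09, limma with Benjamini-Hochberg adjustment). Whether it reads the transgene is not given in the sources used here. Directions below are therefore those of the arrays as labelled. All 9 probes of 6 epithelial markers (EPCAM, CDH1, KRT7, KRT8, KRT18 and KRT19) were well above background on all 12 arrays, and the 3 probes of the leukocyte marker PTPRC and the fibroblast marker COL1A2 were so on none. The lung marker NKX2-1 and the endothelial marker PECAM1 were above background on every array. The lung marker SFTPB was so on 2 control and 0 SRSF2 over-expression arrays, and its probe was not tested. Of 2 probes of the leukocyte marker CD3E, 1 was above background on 5 arrays of each condition. The other was so on 0 control and 3 SRSF2 over-expression arrays. Of the markers tested, KRT7, KRT19 and PECAM1 were lower on the SRSF2 over-expression arrays (-1.32, -0.50 and -0.46). EPCAM was higher by 0.21, NKX2-1 by 0.42 and 0.34 with both probes, and 1 of 2 KRT8 probes by 0.18. NAPSA was higher by 0.63 with 1 probe and changed by -0.06 with the other, which was not called (limma adjusted p = 0.767). The part of these differences in the results was not tested. The study describes 3 labelings per condition with 2 arrays each, without saying which arrays share one. Nor does it say whether the labelings came from separate cultures. The p-values thus measure a spread between arrays that is technical in part or in whole.

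Levels are given on a log2 scale as the background-subtracted signal over the upper quartile (75th percentile) of its array, and a change is the mean over the 6 SRSF2 over-expression arrays minus the mean over the 6 control arrays on that scale. A level can be compared between arrays for one probe, not between probes. Calls of higher or lower needed an adjusted p no greater than 0.05 (limma, Benjamini-Hochberg adjustment over all 24331 probes tested), which 57.7% of all probes met in either direction. Of the 104 member probes, 102 were well above background on every array and 103 were tested.

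The mitochondrial ribosomal protein genes moved in both directions. Of the 103 probes tested, 35 were higher on the SRSF2 over-expression arrays, or 34.0% against 29.7% of all probes tested, and 35 were lower, again 34.0% against 28.0% of all probes. The other 33 probes did not pass the test, with log2 fold changes from -0.39 to 0.31. The median log2 fold change was -0.05 over the members and 0.01 over all probes, and the median size of a change was 0.31 and 0.30. Scaling on spike-in controls instead of the upper quartile, which moved the median of all probes to 0.22, gave 17 higher and 9 lower member probes, or 16.5% and 8.74% against 20.8% and 6.29% of all probes. On the slides taken alone, the median of the members was 0.03, -0.09 and 0.00. All 70 called probes had the same sign on the 3 slides.

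Of the 103 member probes tested, 6 had a fitted change of at least 2-fold, where 7.0% of all probes did. A fitted change of at least 2-fold was found for 5 lower probes (MRPL38 with both its probes, MRPL1, MRPL58 and MRPL42P5) and 1 higher probe (MRPL45). For MRPL42P5, which was dim, the fall of the means was 1.97-fold when arrays below the lowest signal above background were set to it. Among all probes tested, 3.31% were lower and 3.68% higher by that rule. At 1.5-fold, 13 member probes were lower and 5 higher, where 11.3% and 11.7% of all probes passed. Hence 30 of the 35 higher calls and 22 of the 35 lower calls were changes of under 1.5-fold. The arrays of the 2 conditions did not overlap for 29 higher and 27 lower member probes, where 21.2% and 18.9% of all probes were so separated.

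**Figure D1:**
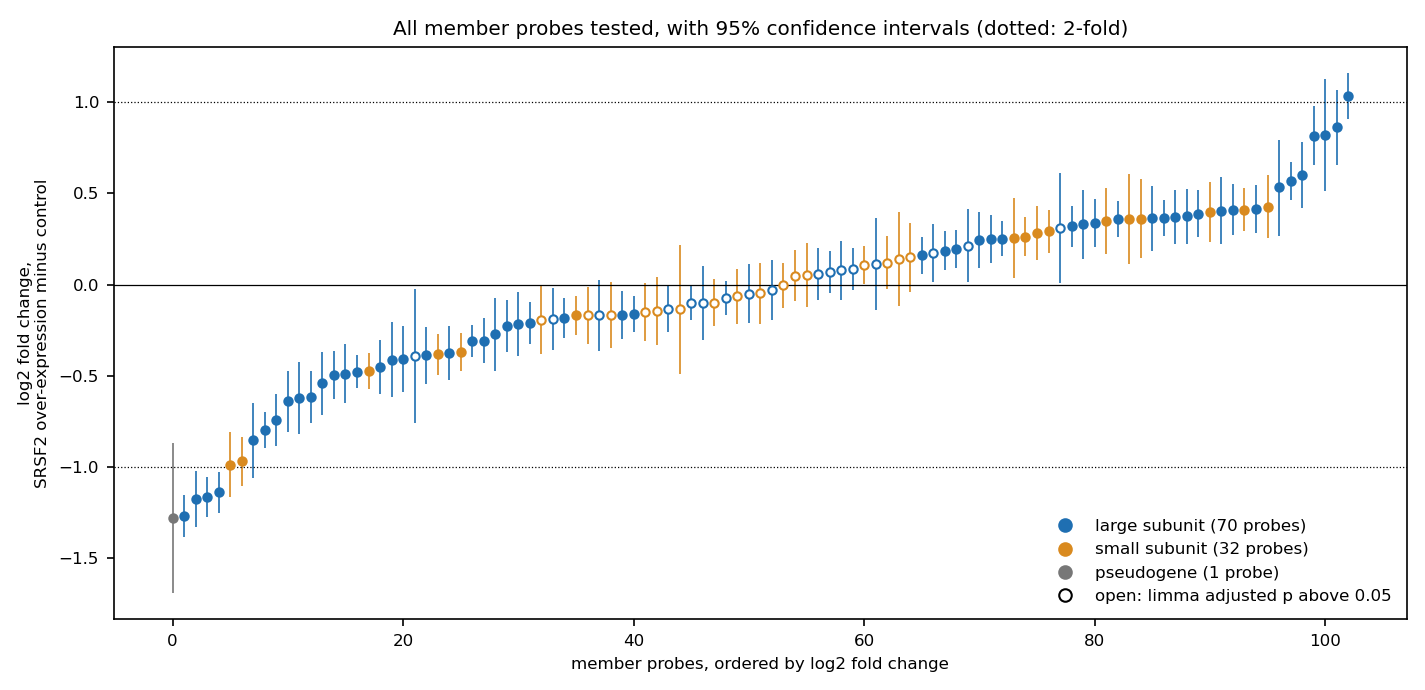
Log2 fold change (SRSF2 over-expression minus control, vertical axis) of the 103 member probes tested, in order of size, with 95% confidence intervals; filled points passed the limma test, open points did not, and colour gives the subunit. The points run from -1.28 for MRPL42P5 to 1.03 for MRPL45, with 5 probes below and 1 above the dotted lines at 2-fold.

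By gene, 25 were called higher, 25 lower, 3 in both directions through different probes, and 24 by none of their probes. Calls in both directions were found in each subunit, where 29.7% of all probes tested were higher and 28.0% lower. Of the 50 large-subunit genes, 17 were higher, 19 lower and 3 both ways, and 25 and 28 of their 70 probes were called (35.7% and 40.0%). Of the 26 small-subunit genes, 8 were higher, 5 lower and 13 not called, with 10 and 6 of 32 probes called (31.2% and 18.8%). The median size of a change was 0.36 over the large-subunit probes and 0.18 over the small-subunit probes, a difference that was not tested. Calls fell in both directions among genes with a bacterial ribosomal counterpart and among those without one, called mitochondria-specific here. The first gave 22 higher and 21 lower calls over 64 probes, and the second gave 13 and 13 over 38 probes, or 34.4% and 32.8% against 34.2% and 34.2%, near the shares over all probes (29.7% and 28.0%). Of the 6 probes with a fitted change of at least 2-fold, 1 belonged to a gene with a bacterial ribosomal counterpart. The others were 4 of genes without such a counterpart and 1 of the dim pseudogene.

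The deepest falls in the large subunit were those of MRPL38, MRPL1 and MRPL58. MRPL38 is a mitochondria-specific protein of the large subunit. Its probe A_23_P54963 read 1.49 to 1.72 on the control arrays (median 1.68) and 0.29 to 0.45 on the SRSF2 over-expression arrays (median 0.38). The second probe, A_23_P54956, read 3.92 to 4.16 (median 4.06) and 2.79 to 2.94 (median 2.90). Every SRSF2 over-expression array lay below every control array with both probes. The log2 fold changes were -1.27 ± 0.053 and -1.17 ± 0.051 (SE), or 2.41-fold and 2.24-fold lower (limma adjusted p = 1.45e-09 and 1.81e-09).

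MRPL58, also known as ICT1, is a peptidyl-tRNA hydrolase built into the large subunit, where it frees stalled ribosomes. Its level was 4.95 to 5.16 on the control arrays (median 5.05) and 3.84 to 4.00 on the SRSF2 over-expression arrays (median 3.90), with no overlap. This made MRPL58 2.20-fold lower, a log2 fold change of -1.14 ± 0.051 (limma adjusted p = 2.43e-09). MRPL1 is the counterpart of bacterial L1. Its level was -0.17 to -0.07 on the control arrays (median -0.13) and -1.48 to -1.09 on the others (median -1.33). The 2 SRSF2 over-expression arrays of slide 1 stood highest in their condition but were still below every control array. MRPL1 was thus 2.26-fold lower, with a log2 fold change of -1.17 ± 0.071 (limma adjusted p = 2.77e-08).

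The pseudogene MRPL42P5 was lower, but its signal was dim. It cleared the background on 5 control and 3 SRSF2 over-expression arrays, with a level of -3.75 to -3.25 on the first (median -3.52) and of -5.25 to -4.00 on the second (median -4.87). The groups did not overlap. The fitted log2 fold change was -1.28 ± 0.19, which the dim arrays leave uncertain in size (limma adjusted p = 7.68e-05). Whether this probe also binds transcripts of MRPL42 was not tested.

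Falls of 1.5-fold to 2-fold were found in 8 further probes of the 2 subunits. In the small subunit, MRPS27, a pentatricopeptide-repeat protein, read 1.75 to 2.10 on the control arrays (median 1.79) and 0.70 to 1.06 on the others (median 0.86). MRPS2, the counterpart of bacterial S2, read 3.91 to 4.05 (median 4.03) and 2.86 to 3.17 (median 3.01). Neither overlapped between conditions, and the log2 fold changes were -0.99 ± 0.082 and -0.97 ± 0.061 (limma adjusted p = 4.90e-07 and 4.10e-08). In the large subunit, MRPL21 fell by 0.85 on the log2 scale, MRPL23 by 0.64 and MRPL46 by 0.62 with both its probes; MRPL21 and MRPL23 have bacterial counterparts, and MRPL46 has none. One probe each of MRPL52 and MRPL30 fell by 0.80 and 0.74, and their other probes are described below. None of these probes overlapped between conditions.

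Smaller falls were called for 15 other genes. MRPL12, the protein of the ribosomal stalk, also described as a partner of the mitochondrial RNA polymerase, read 3.77 to 3.85 on the control arrays and 3.25 to 3.39 on the others. It fell by 0.48 on the log2 scale (limma adjusted p = 7.42e-07). MRPL20, MRPL39, MRPL41, MRPL47, MRPL2, MRPL22 and MRPS5 fell by 0.21 to 0.54, and MRPS21 fell by 0.37 and 0.38 with its probes. MRPL57, MRPL55, MRPL36, MRPL28, MRPL14 and MRPS12 fell by 0.16 to 0.31, of which MRPL36, MRPL28, MRPL14 and MRPS12 turned slightly positive in at least 1 of the scalings or background corrections tried. MRPS12, the counterpart of bacterial S12 at the decoding site, had a change of -0.17 (limma adjusted p = 0.00985) with one probe and of -0.05 with the other, which did not pass, and the arrays of the conditions overlapped for both.

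The largest rise was that of MRPL45, a protein at the exit of the ribosomal tunnel that holds the ribosome at the inner membrane. The probe A_32_P9575 read 0.24 to 0.56 on the control arrays (median 0.41) and 1.360 to 1.501 on the SRSF2 over-expression arrays (median 1.46). The conditions were far apart, and the log2 fold change was 1.03 ± 0.059, or 2.05-fold (limma adjusted p = 1.80e-08). The other MRPL45 probe, A_23_P113623, went the opposite way. It read 4.28 to 4.35 on the control arrays (median 4.32) and 3.93 to 4.04 on the others (median 4.01). That was a log2 fold change of -0.31 ± 0.039 (limma adjusted p = 2.21e-05), again without overlap.

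MRPL44, a mitochondria-specific protein with a ribonuclease III-like fold, rose without overlap between conditions. Its level was 1.81 to 2.17 on the control arrays (median 2.02) and 2.73 to 2.97 on the SRSF2 over-expression arrays (median 2.76). The log2 fold change was 0.82 ± 0.074, or 1.76-fold (limma adjusted p = 1.04e-06). MRPL49, another mitochondria-specific protein, was higher with its 3 probes, none of which overlapped. Its log2 fold changes were 0.86 ± 0.095, 0.60 ± 0.083 and 0.33 ± 0.087 (limma adjusted p = 5.99e-06, 4.38e-05 and 0.00572). MRPL40 rose by 0.57 on the log2 scale (limma adjusted p = 6.85e-07).

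MRPL3, the counterpart of bacterial L3, rose with one probe. A_23_P7030 read 1.04 to 1.39 on the control arrays (median 1.18) and 1.71 to 2.49 on the SRSF2 over-expression arrays (median 1.85). The 2 SRSF2 over-expression arrays of slide 1 were the highest. The log2 fold change was 0.82 ± 0.14 (limma adjusted p = 0.000287), and on the slides taken alone it was 1.10, 0.56 and 0.80. The other probe, A_23_P18422, changed by 0.17 (adjusted p = 0.0609).

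**Figure D2:**
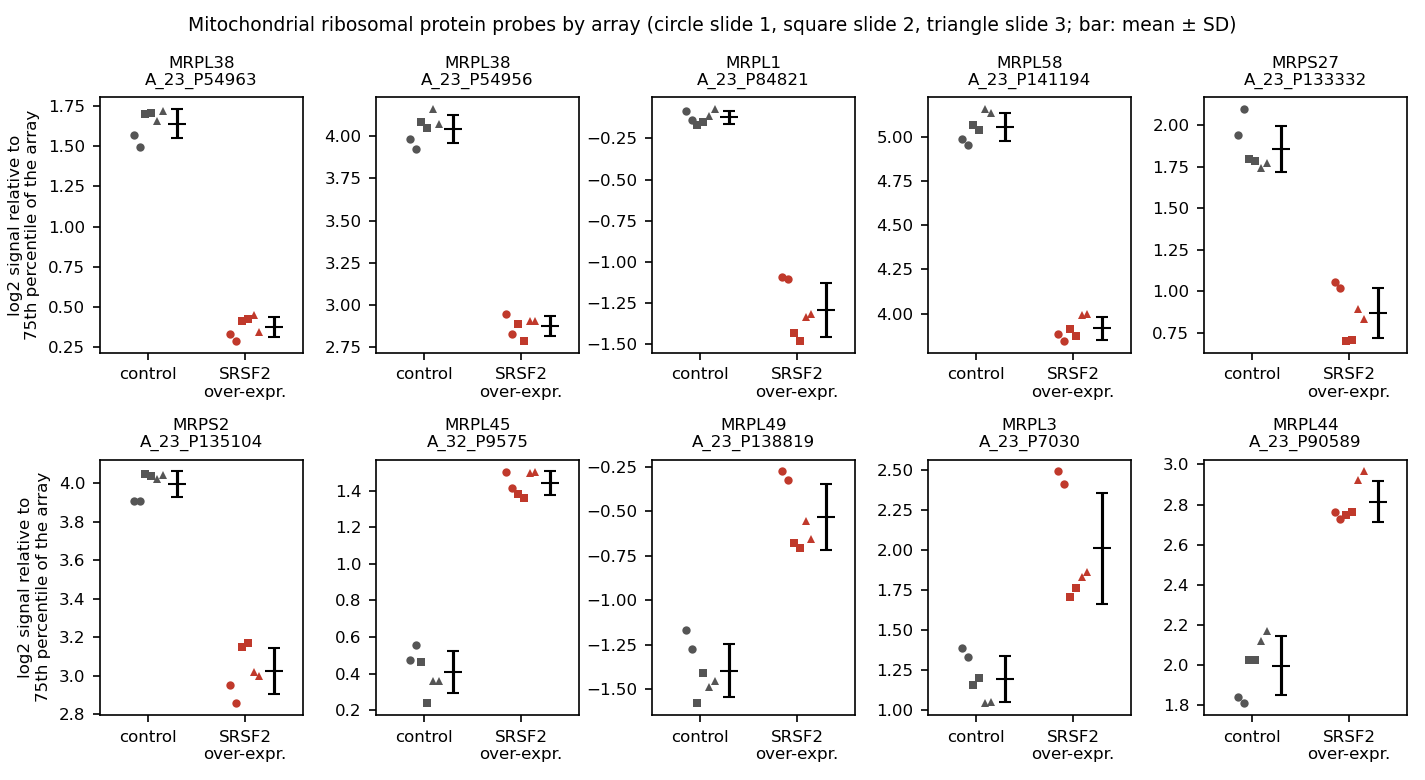
Level of 10 member probes on each array (log2 signal over the upper quartile of its array, vertical axis; control arrays left in grey, SRSF2 over-expression arrays right in red, marker shape for the slide, bar for mean ± SD over 6 arrays). MRPL38, MRPL1, MRPL58, MRPS27 and MRPS2 lie lower, and these probes of MRPL45, MRPL49, MRPL3 and MRPL44 higher, on every SRSF2 over-expression array; the axes differ between panels.

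The other rises were small. In the small subunit, MRPS7, the counterpart of bacterial S7, read 2.32 to 2.78 on the control arrays (median 2.66) and 2.89 to 3.21 on the others (median 3.07). Its log2 fold change of 0.43 ± 0.079 (limma adjusted p = 0.00049) was the largest rise in that subunit. MRPS10 was higher with its 3 probes (0.28, 0.36 and 0.41), and MRPS14, MRPS16, MRPS18B, MRPS23, MRPS28 and MRPS33 were higher by 0.26 to 0.40. The MRPS33 call was weak (limma adjusted p = 0.0452) and passed the threshold in 6 of the 20 settings tried. On the slides taken alone, MRPS33 changed by 0.52, 0.10 and 0.14. In the large subunit, MRPS30 rose by 0.42 (limma adjusted p = 7.33e-05). MRPL35 gave 0.53 and 0.36 with called probes and 0.31 (adjusted p = 0.073) with the third. MRPL33 gave 0.25 with the called probe and 0.21 (adjusted p = 0.0661) with the other. MRPL4, MRPL10, MRPL11, MRPL15, MRPL16, MRPL18, MRPL27, MRPL32, MRPL37 and MRPL51 were higher by 0.16 to 0.41.

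The members that no probe called were 11 of the large subunit (MRPL9, MRPL13, MRPL17, MRPL19, MRPL24, MRPL34, MRPL48, MRPL50, MRPL53, MRPL54 and MRPS18A) and 13 of the small subunit (MRPS6, MRPS9, MRPS11, MRPS15, MRPS17, MRPS18C, MRPS22, MRPS24, MRPS25, MRPS26, MRPS31, MRPS34 and MRPS35). A missed threshold does not show that their levels were equal. For MRPS9 the change was 0.00, with a 95% confidence interval from -0.13 to 0.12, and for MRPS24 it was 0.05, with an interval from -0.12 to 0.23. For MRPS11 the interval of 1 probe was wider, from -0.49 to 0.22. MRPS34 changed by -0.17 (limma adjusted p = 0.0616) and passed the threshold in 5 of the 20 settings tried.

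Promoters are shown for 4 genes with large changes, MRPL38 and MRPL58 among the falls and MRPL45 (by 1 of its probes) and MRPL44 among the rises; they are examples and not the 4 largest changes. Each sequence is the stretch of 250 bases before the annotated start, from RefSeq on build GRCh38.p14, read 5′ to 3′ in the direction of the gene. Capitals mark the letters of 4 motifs of factors known for promoters of nuclear mitochondrial genes, searched on both strands: NRF1 (GCGCANGCG), ETS (CCGGAAG), YY1 (AAGATGGCG) and E-box (CACGTG). The windows are chr17:75904885-75905134 on the minus strand for MRPL38, chr17:75012420-75012669 on the plus strand for MRPL58, chr17:38296918-38297167 on the plus strand for MRPL45 and chr2:223957213-223957462 on the plus strand for MRPL44.
MRPL38: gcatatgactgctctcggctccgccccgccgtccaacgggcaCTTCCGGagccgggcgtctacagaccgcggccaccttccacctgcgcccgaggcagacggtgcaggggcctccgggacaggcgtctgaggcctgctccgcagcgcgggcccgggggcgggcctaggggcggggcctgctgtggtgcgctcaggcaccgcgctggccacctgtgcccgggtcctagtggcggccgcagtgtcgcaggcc
MRPL58: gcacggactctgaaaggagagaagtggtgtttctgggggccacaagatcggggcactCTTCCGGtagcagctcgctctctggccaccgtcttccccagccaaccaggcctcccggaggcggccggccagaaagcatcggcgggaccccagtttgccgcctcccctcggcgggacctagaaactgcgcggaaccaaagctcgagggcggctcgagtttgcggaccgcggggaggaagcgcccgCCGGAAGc
MRPL45: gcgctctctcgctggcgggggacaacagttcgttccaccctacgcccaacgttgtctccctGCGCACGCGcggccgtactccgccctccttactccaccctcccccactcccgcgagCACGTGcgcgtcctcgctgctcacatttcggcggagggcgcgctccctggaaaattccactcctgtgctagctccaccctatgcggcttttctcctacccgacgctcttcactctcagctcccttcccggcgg
MRPL44: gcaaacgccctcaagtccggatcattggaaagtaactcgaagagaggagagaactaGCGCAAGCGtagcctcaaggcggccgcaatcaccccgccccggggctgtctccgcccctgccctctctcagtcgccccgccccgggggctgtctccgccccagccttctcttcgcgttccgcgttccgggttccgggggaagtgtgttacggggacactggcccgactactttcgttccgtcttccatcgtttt

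The MRPL38 window held 1 ETS match and the MRPL58 window 2. The MRPL45 window held an NRF1 and an E-box match and the MRPL44 window an NRF1 match. MRPL38 also had a YY1 match at base 7 after the start, outside the window shown. Over all members, the motifs were counted in longer windows. Windows of 300 bases (250 before and 50 after the start, the first one listed for a gene) were on hand for 68 of the 77 members. An ETS match was present in 29 of them, or 42.6%, against 14.2% of the promoters of protein-coding genes. A YY1 match was present in 12 (17.6% against 2.74%), an NRF1 match in 13 (19.1%, against 1746 of 15843 promoters of protein-coding genes) and an E-box in 6 (8.82% against 8.88%). The ETS and YY1 letters can share bases, and did so in 0 members. By call, ETS letters were found in 10 of 21 promoters of genes called higher and 8 of 21 of genes called lower. They were found in 9 of 23 of genes not called. In the same order, YY1 letters were found in 4, 5 and 3, NRF1 letters in 3, 5 and 3, and E-box letters in 2, 2 and 1. These are matches of letters and not measured binding.

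Genes with several probes showed where one gene gave more than one answer. For 22 members with 2 or 3 tested probes, the change was compared between probes of one gene with limma on the within-array difference, adjusted over all 6319 such pairs on the array. The changes differed for 9 of 30 member pairs, or 30.0% against 40.0% of all pairs, and for 7 of the 22 genes (MRPL3, MRPL30, MRPL43, MRPL45, MRPL49, MRPL52 and MRPS6). For 3 of them the probes were called in opposite directions. The files give no probe sequences, so the part of the transcript that a probe reads was not analysed here.

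MRPL45 had the widest gap, 1.34 ± 0.068 on the log2 scale between its probes (limma adjusted p = 1.10e-08). MRPL30, the counterpart of bacterial L30, came next. Its probe A_23_P218619 read -1.02 to -0.73 on the control arrays (median -0.84) and -1.76 to -1.47 on the others (median -1.60), a log2 fold change of -0.74 ± 0.066. The probe A_24_P302695 read 3.14 to 3.28 (median 3.25) and 3.42 to 3.80 (median 3.61), a log2 fold change of 0.38 ± 0.070 (limma adjusted p = 8.58e-07 and 0.000533). Neither probe overlapped between conditions, and the probes differed from each other by 1.12 ± 0.055 (limma adjusted p = 9.73e-09). Both probes of MRPL30, like those of MRPL45, carry the same RefSeq accession.

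MRPL43 had 4 probes. A_23_P382154 was lower, with a change of -0.41 ± 0.094, and A_23_P63689 and A_23_P63696 were higher, with 0.32 ± 0.051 and 0.39 ± 0.058 (limma adjusted p = 0.00225, 0.00015 and 8.66e-05). The first carries another accession than the other 2 and differed from them by 0.73 and 0.80 on the log2 scale (limma adjusted p = 1.70e-05 and 1.61e-06). The fourth, A_23_P346384, was the member left untested, clearing the background on 3 control and 4 SRSF2 over-expression arrays. MRPL52 fell with A_24_P57730, which read 1.26 to 1.44 on the control arrays and 0.52 to 0.63 on the others (log2 fold change -0.80 ± 0.046, but 0.28 with normexp background correction). It changed by -0.13 (adjusted p = 0.0632) with A_24_P409330, and the probes differed by 0.66 ± 0.065 (limma adjusted p = 3.84e-06). At the other end, the probes of MRPL38, MRPL46, MRPS21, MRPL10, MRPL20 and MRPS10 gave like changes, and the largest difference between probes within these genes was 0.13.

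**Figure D3:**
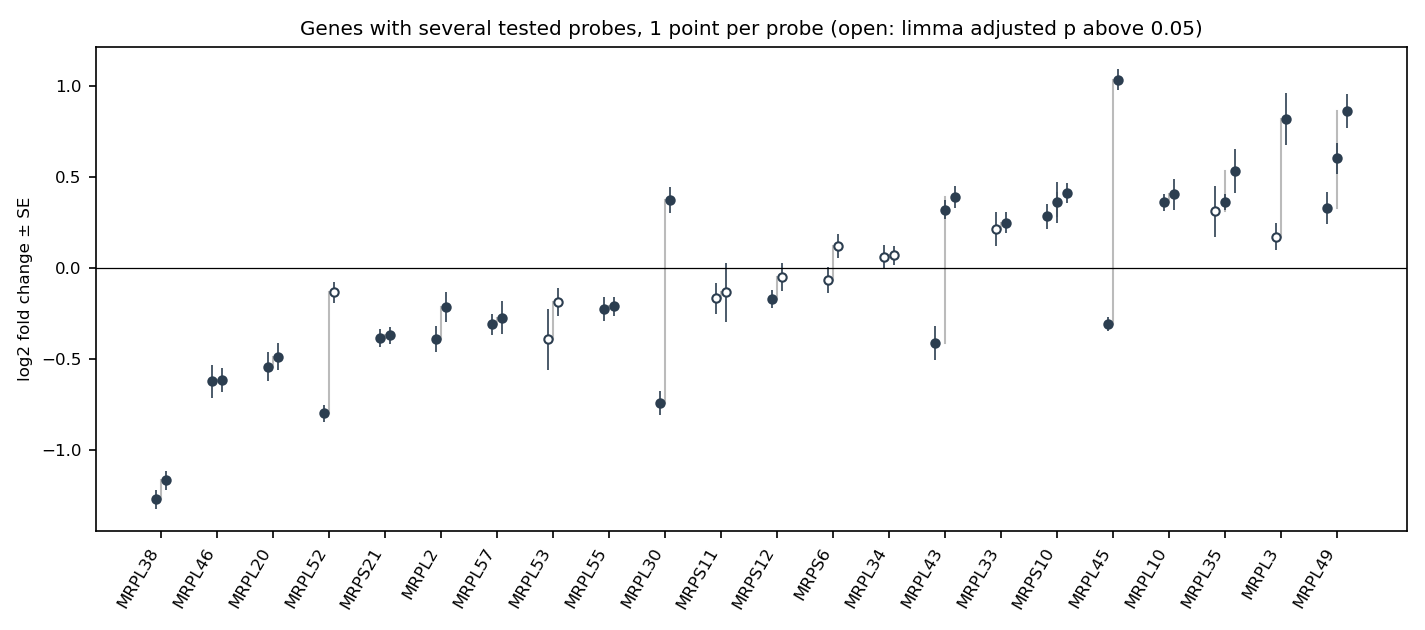
Log2 fold change (vertical axis, ± SE) of each tested probe of the 22 member genes with 2 or 3 tested probes; grey lines join probes of a gene, and open points did not pass the limma test. MRPL38 and MRPL46 have probes that nearly coincide, whereas MRPL30, MRPL43 and MRPL45 have filled points on both sides of 0.

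Beside the members stand other genes of the mitochondrial translation system, taken from lists of known function. Over all probes, 29.7% were called higher and 28.0% lower. The 5 other proteins of the ribosome (DAP3, PTCD3, CHCHD1, AURKAIP1 and GADD45GIP1) gave 1 higher and 1 lower call. PTCD3 was higher by 0.19, GADD45GIP1 fell by 0.19 on the log2 scale, and the other 3 did not pass the test. Over the 20 settings tried, described below, PTCD3 passed the threshold in 12 and GADD45GIP1 in 10. Of 22 probes for translation factors, 7 were higher and 8 lower, near the shares over all probes (29.7% and 28.0%), with a median log2 fold change of -0.01; the 15 calls were 6 with spike-in scaling and 1 with normexp. MTFMT, which formylates the initiator tRNA, was higher by 0.73 ± 0.052, and MRRF, the recycling factor, by 0.63 ± 0.21 with one probe and not with the other (-0.15, adjusted p = 0.0875). MTRFR, a rescue factor related to MRPL58, was lower with its 3 probes (-0.38, -0.86 and -1.02; limma adjusted p = 0.00166, 0.00576 and 0.000204). The release factor MTRF1 was lower with one probe (-0.60) and called higher with the other, which was above background on 3 control and 5 SRSF2 over-expression arrays, so that the size of that rise is not given.

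Factors that build the ribosome had more higher than lower calls. Of 33 probes for assembly and rRNA modification factors, 17 were higher and 8 lower, where 29.7% and 28.0% of all probes were, and the median log2 fold change was 0.20, against 0.01 over all probes. The 25 calls were 9 with spike-in scaling and 8 with normexp. NSUN4, an rRNA methyltransferase that works with MTERF4, was higher by 1.00 ± 0.12 and 0.99 ± 0.13 with its probes (limma adjusted p = 1.48e-05 and 2.19e-05). The 2'-O-methyltransferases MRM2 and MRM3 were higher by 0.93 and 0.69, MTERF3 by 0.74 and 0.83, MTERF4 by up to 0.63, and FASTKD2 by 0.61 and 0.39. METTL15, a methyltransferase for the small-subunit rRNA, was called lower with 2 dim probes (-0.42 and -0.63). These were above background on 5 and 4 SRSF2 over-expression arrays and overlapped between conditions, so the sizes are uncertain. A further METTL15 probe was too dim to be tested. The other lower calls were under 1.5-fold and are named here after their values were seen. RPUSD4 with both probes (-0.555 and -0.358), RBFA (-0.485), METTL17 (-0.356) and MTG2 A_24_P391229 (-0.562) did not overlap between conditions. The other MTG2 probes were not called. TRMT61B (-0.452) was dim and overlapped.

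Genes for mitochondrial DNA transcription and replication gave 10 higher and 6 lower calls among 18 probes, with a median of 0.46, where 29.7% and 28.0% of all probes were called. The 16 calls were 7 with normexp. The helicase TWNK was higher by 1.05 ± 0.085 and 0.90 ± 0.074 and the elongation factor TEFM by 0.93 ± 0.068 and 0.78 ± 0.069 (limma adjusted p = 3.96e-07, 4.70e-07, 1.61e-07 and 8.64e-07). TFB2M, MTERF1 and MGME1 were higher by 0.60, 0.65 and 0.62 with their strongest probes. POLRMT, the RNA polymerase of mitochondria, was lower with both probes (-0.51 and -0.61; limma adjusted p = 0.00472 and 0.000102).

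Among nuclear regulators, GABPA, the ETS factor also called NRF2 alpha, read -3.21 to -2.92 on the control arrays (median -3.07) and -1.99 to -1.47 on the SRSF2 over-expression arrays (median -1.49). The arrays did not overlap, and the log2 fold change was 1.48 ± 0.092 (limma adjusted p = 3.96e-08). Over the 20 settings tried, described below, the GABPA change ran from 0.48 to 1.68 and passed the threshold in 19. GABPB1, the partner of GABPA, was higher by 0.96 and 0.24 with its probes. PPARGC1B, a coactivator of mitochondrial genes, read -2.27 to -1.90 and -3.93 to -3.07, a log2 fold change of -1.36 ± 0.14 (limma adjusted p = 2.56e-06). Its change ran from -1.44 to -0.89 over the settings and passed in 19 of 20. Over the 10 probes tested in this list, 6 were higher and 3 lower, where 29.7% and 28.0% of all probes were called. The 9 calls were 4 with spike-in scaling and 2 with normexp. The YY1 probe had a change of 1.87 ± 1.4 that did not pass the test (adjusted p = 0.268), with 1 control array at -6.66 and a control median of 2.54. The chaperones and proteases of the matrix and inner membrane gave 5 higher and 7 lower calls among 20 probes, where 29.7% and 28.0% of all probes were called; the 12 calls were 6 with spike-in scaling and 2 with normexp. GRPEL2 was higher by 1.84 and 0.40, while DNAJA3, LONP1 and TRAP1 were lower, with changes of -1.08, -0.95 and -0.73. SPG7 gave calls in both directions. Of its 4 probes, 1 was higher by 1.22 (past the threshold in 19 of 20 settings), 2 were lower (-0.21 and -0.43) and 1 was not called (0.06).

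**Figure D4:**
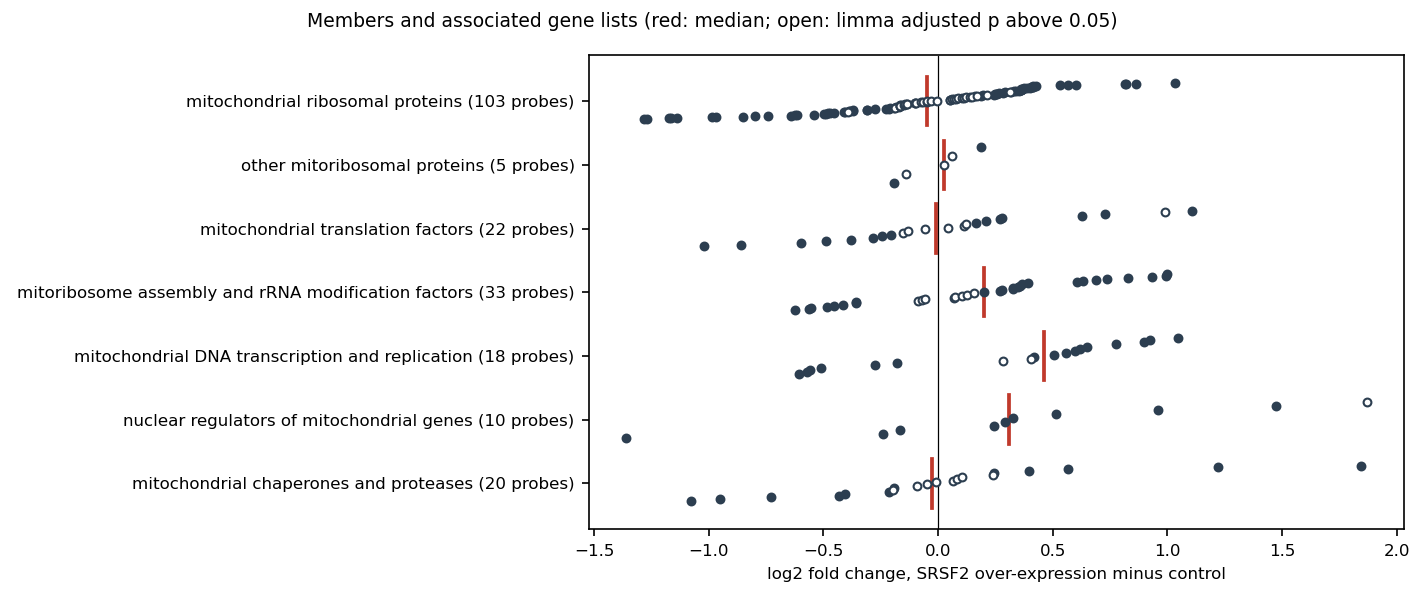
Log2 fold change (horizontal axis) of each tested probe of the mitochondrial ribosomal protein genes and of 6 lists of associated genes; filled points passed the limma test, and red bars give the median of a list. The medians are -0.05 for the members, 0.20 for assembly factors and 0.46 for DNA transcription and replication; each list has points on both sides of 0.

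The counts of called members, like those of all probes, depended on the replicate unit and on the background correction. When both arrays of a condition on one slide were averaged into 1 replicate, which leaves 3 values per condition, 22 member probes were higher and 26 lower (21.4% and 25.2%, against 19.8% and 19.3% of all probes). With normexp background correction they were 6 and 7 (5.83% and 6.80%, against 5.80% and 5.79% of all probes). Across the 20 settings tried, 12 of the 70 called probes passed the threshold in every one: those of MRPL38, MRPL1, MRPL58, MRPS27, MRPS2 and MRPL21 among the falls, and MRPL45 A_32_P9575, MRPL44, MRPL3 A_23_P7030, MRPL49 A_24_P232500 and MRPL40 among the rises. In every setting, 35 of the 35 higher and 30 of the 35 lower calls had the same sign.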

How the data were processed

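The authors deposited scanner output of Agilent Feature Extraction 10.7.3.1 for 12 one-colour arrays, with the background-subtracted intensity of each spot and its flags, and a table of log2 values centred on the median of each probe, for which the methods name GeneSpring GX and no normalization; its values differed from those computed here, centred alike, by a median of 0.0078, and it was used as an alternative only. Per the file headers, the array design uses build hg18. From the deposited intensity, log2 values were taken, outlier spots were left out, spots of one probe were averaged, and the 75th percentile of each array was subtracted. The filter kept 24331 probes, those that were missing on no more than 25% of arrays and flagged as well above background on 5 or more of the 6 arrays of either condition. The test of the conditions was that of limma (version 3.58.1, R 4.3.3; lmFit, then eBayes), with no covariate and Benjamini-Hochberg adjustment; summaries used Python 3.11.15, numpy 2.4.6 and pandas 2.3.3. The scripts were tested on simulated data. The number of arrays limits the precision.

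RefSeq accessions named 23958 of 25868 probes that carry one, through the GRCh38.p14 gene table. The members, gene lists, tests and settings were chosen with earlier results of these data known. Probes were named where a call reached 1.5-fold, for the 8 largest rises and falls, where probes of a gene were called differently, for the 5 highest signals, for known roles (MRPL12, MRPL45, MRPS12, MRPL58, MRPS30, and MRPS36, which is KGD4 here), and in each associated list for calls of 1.5-fold or, without any, the 2 lowest p-values; other members are named to account for all of them and were chosen after their values were seen, as was the test between probes. KGD4 had a log2 fold change of -0.28 (limma adjusted p = 0.0156). A list is described by counts and medians only. The alternatives were scaling on the median, on quantiles or on spike-in controls, normexp (on median spot intensity, with an offset of 50), no background subtraction, no filter or a filter on all 12 arrays, outlier spots kept, the deposited table, the methods' t-test, slide or replicate block, averaged array pairs, each slide left out, and, chosen after the data were seen, control replicate 2 left out and spike-in scaling without slide 1.

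Arrays are numbered 1 to 6 in both conditions. The deviations of same-numbered arrays from their condition means correlated at 0.28 to 0.64 in the 6 pairs, those of arrays of one slide with different numbers at 0.33 to 0.66, and those of arrays on different slides at -0.48 to -0.05, so the numbers pair the arrays through the slide.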

Additional observations from a re-analysis of the deposited data

Results flagged for a closer look

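Among the 40 named member probes, the 6 arrays of a condition were searched for 1 array far from the rest. In 3 of the 80 groups the lowest or highest array stood apart from its nearest neighbour by more than Dixon's 95% criterion allows, and chance alone gives about 1 in 20 such groups. The 3 were all control replicate 2. For MRPL35 A_23_P165651 it read 0.83 where the nearest control array read 1.48, for MRPS7 it read 2.32 where the nearest read 2.63, and for MRPL3 A_23_P18422 it read 3.40 where the nearest read 3.22. Probes outside the 40 were not searched, and control replicate 2 stood apart in some of them too. It was low for MRPL49 A_24_P201491 (3.39, nearest 3.88), MRPS33 (2.80, nearest 3.25) and MRPS11 A_23_P48977 (1.87, nearest 2.69). For MRPL18 it was high (3.96, nearest 3.68). Without control replicate 2, 38 member probes were higher and 38 lower, or 36.9% each, against 29.7% and 28.6% of all probes. This setting was chosen after the data were seen.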

How the results depend on the processing

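Scaling on 6 spike-in control probes moved the median of all probes to 0.22 and that of the members to 0.16, and left 17 member probes higher and 9 lower. Without slide 1, a choice made after the data were seen, the same scaling gave 7 and 15 with a median of -0.02. Those were 6.8% and 14.6% of member probes, against 13.9% and 13.5% of all probes. Normexp correction gave 6 higher, 7 lower, 3 of at least 2-fold and a median of 0.10, where that of all probes was -0.10. The mean of 2 arrays as 1 replicate left 22 higher. Among named probes, spike-in scaling turned MRPL14 to 0.039, MRPS12 A_23_P50807 to 0.037 and GADD45GIP1 to 0.012, and normexp turned MRPL14 to 0.045, MRPS12 A_23_P50807 to 0.029, GADD45GIP1 to 0.022, MRPL52 A_24_P57730 to 0.275 and MTRF1 A_24_P349821 to -0.10; none of these passed the test there, and the cause was not tested. Leaving out a slide gave 31 to 36 higher, 31 to 42 lower and 6 to 7 of at least 2-fold. With the replicate block, the pairing by number gave 39 higher and 42 lower (37.9% and 40.8%, against 34.1% and 31.7% of all probes). With slide as a block they were 40 and 46 (38.8% and 44.7%, against 36.2% and 33.9% of all probes). Elsewhere the counts of member calls stayed within 1.5 times those reported. The 2 calls among the 5 other mitoribosomal proteins were 0 or 1 in 11 settings, among them median scaling, quantile normalization and no background subtraction. With averaged array pairs, calls were 7 of 22 for translation factors, 15 of 33 for assembly factors and 5 of 10 for nuclear regulators; with spike-in scaling without slide 1 they were 7, 12 and 4, and 7 of 20 for chaperones and proteases. Array number limits small changes, and signal over background limits MRPL42P5. Its fall was 1.97-fold when arrays below the lowest signal above background were set to it. Over the settings its log2 fold change ran from -1.49 to -0.58.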
